A study of Mus musculus with 15 samples.

Results

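Translation initiation and elongation factor genes were compared between the B6 and the Spret allele of hybrid mouse organoids. The members were taken by a rule on name and chromosome, as autosomal genes whose symbol begins with Eif1 to Eif6 or with Eef1 or Eef2. Pseudogene symbols and a kinase gene were left out. The choice was made with earlier results of these data known. The members came to 66 of the 44260 genes in the table, 52 for initiation and 14 for elongation. A choice by symbol also takes in regulators and modifying enzymes, such as the eIF2 kinases, the eIF4E-binding proteins and the methyltransferases of eEF1A.

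RNA was read from day 12 organoids grown out of epiblast stem cells of SpretB6 lines, F1 hybrids that carry a C57BL/6J (B6) genome and a Mus spretus (Spret) genome. There was 1 group of 3 libraries of this genotype, titled C1 to C3, and each gave 2 values per gene, 1 from each genome. The alleles share a library's RNA, so each comparison was made within a library. X-linked genes were read from B6 and Y-linked genes from Spret in all 3 libraries and no reverse cross was analysed here, so strain and parent of origin cannot be told apart.

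Protein synthesis begins when eIF2 brings the initiator tRNA to the small ribosomal subunit, which eIF1, eIF1A and eIF3 hold ready. The eIF4F complex, made of the cap-binding protein eIF4E, the scaffold eIF4G and the helicase eIF4A, then recruits this subunit to the mRNA cap. After start codon recognition, which involves eIF5 and eIF5B, eEF1A delivers aminoacyl-tRNAs and eEF2 moves the ribosome along. In growing neural tissue this machinery is under the control of mTORC1 and of kinases that phosphorylate eIF2.

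What members shared beyond their names was looked for in their promoters. RefSeq promoter windows on GRCm38.p6, which run from 250 bases before to 50 bases after a start site, were found for 49 of the 66 members. The E-box letters CACGTG stood in 14 of these 49 (28.6%), against 11.1% of the 10641 tested autosomal genes with a window and 8.09% of all 27025 genes with one. CCGGAAG, letters of the kind bound by ETS factors, stood in 16 members (32.7%), against 18.9% of tested autosomal genes and 9.93% of all genes with a window. CCAAT stood in 18 members (36.7%, against 42.8% of tested autosomal genes), and TATAA in 7 (14.3%, against 16%). Each motif was searched on both strands, a gene counted if any of its windows held it, and no motif contains another. CACGTG is its own reverse complement. A match is a description of letters and no evidence of a bound factor.

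The promoters of 3 abundant called members show these letters in place, from 100 bases before the RefSeq start to 30 bases from it. The sequences are those of the B6 reference genome, read 5′ to 3′ on the strand of the gene, with motif letters in capitals. Eef2 lies at chr10:81176531-81176660 on the plus strand and holds CACGTG and TATAA. Eif3d lies at chr15:77970795-77970924 on the minus strand and holds CTTCCGG, the reverse complement of CCGGAAG. Eif4a1 lies at chr11:69672394-69672523 on the minus strand and holds 2 copies of CCAAT.
Eef2: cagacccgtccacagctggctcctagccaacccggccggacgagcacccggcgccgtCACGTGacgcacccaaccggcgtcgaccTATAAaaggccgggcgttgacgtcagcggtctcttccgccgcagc
Eif3d: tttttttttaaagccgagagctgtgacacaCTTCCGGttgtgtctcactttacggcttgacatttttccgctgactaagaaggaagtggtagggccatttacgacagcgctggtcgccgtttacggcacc
Eif4a1: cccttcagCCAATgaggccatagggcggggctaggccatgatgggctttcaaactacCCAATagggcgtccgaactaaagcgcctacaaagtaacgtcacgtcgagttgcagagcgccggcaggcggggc
As given with their values, the call of Eef2 ended after centring and that of Eif4a1 when small RNA genes inside it were subtracted. Allele-specific differences within these windows were not tested, since Spret sequence was not used here.

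Values are allele-specific read numbers per gene, normalised and rounded by the authors, and they depend on how many sites tell the alleles apart. Allelic differences are therefore compared within a gene and not between genes. Sums over different genes, as for the markers below, are only a rough description of the cells. The columns summed to 2413876 to 3027078 for B6 and 2088788 to 2639912 for Spret. Over autosomal genes the Spret share, the Spret value as a percentage of both, was 47.7% ± 0.137 (SD, n = 3 here and for all shares below). Excitatory neuron markers summed to 21841 to 22078 and forebrain progenitor markers to 5262 to 6334, while the 8 markers of pluripotent and epiblast cells, the cells named by the tissue label, summed to 48 to 126. Choroid plexus markers summed to 3246, 809 and 487 in libraries 1, 2 and 3, of which Ttr alone read 2555, 534 and 323. Each of them was highest in library 1 except Kl, at 19, 23 and 8. The 7 mesenchyme markers summed to 397 to 436. The part of these other cell types in the allelic ratios was not tested. In bulk RNA, fewer cells of a type and less RNA per cell cannot be told apart.

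Summed over members, values made up 1.05%, 0.978% and 1.06% of all values in libraries 1, 2 and 3. The initiation genes had a Spret share of 48.3% ± 0.621, and the elongation genes 43.9% ± 0.246. The lower elongation share rested on Eef1a1, the main gene for eEF1A, since without it the other elongation genes stood at 48.9% ± 0.703. Without Eif4a1, the initiation genes stood at 48.9% ± 0.383.

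For each gene with a mean of at least 10 over the 6 allele columns, the allelic ratio is log2(Spret value + 1) less log2(B6 value + 1). It is positive where Spret was higher and understates the difference of low genes. A gene was called where the adjusted p from limma was under 0.05, and all 15985 such genes of the table were fitted together, of which 30.4% were called. The median ratio of the 15456 tested autosomal genes was -0.13, so the whole table leaned to B6. Each call was therefore also tested with the ratios of a library centred on its autosomal median, and a call that ended there is named. Apart from that of Eef1a1, each member call also ended under at least 1 of the fits without a filter, without the library term or without the mean-variance trend. Over all fitted genes, calls fell from 4852 to 1236, 1537 and 2229 in these fits.

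Of the 62 members that could be tested, 19 were called (30.6%), 5 of them higher from Spret and 14 higher from B6. Of tested autosomal genes 28.4% passed, 7.78% with Spret and 20.7% with B6 as the higher allele, so the members' share was near that of the table. Among initiation genes 16 of 49 were called (32.7%), 4 higher from Spret and 12 higher from B6. Centring turned this split to 7 and 7, beside a background of 26.8% called, 13.3% higher from Spret and 13.5% higher from B6. Without library 1, 5 initiation genes in place of 12 were higher from B6, while calls over all tested genes fell from 4852 to 2667. Among elongation genes 3 of 13 were called (23.1%), 1 higher from Spret and 2 higher from B6, and centring gave 2 and 1. The median ratio was -0.06 over initiation genes and -0.04 over elongation genes, and 0.07 and 0.08 after centring.

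**Figure D1:**
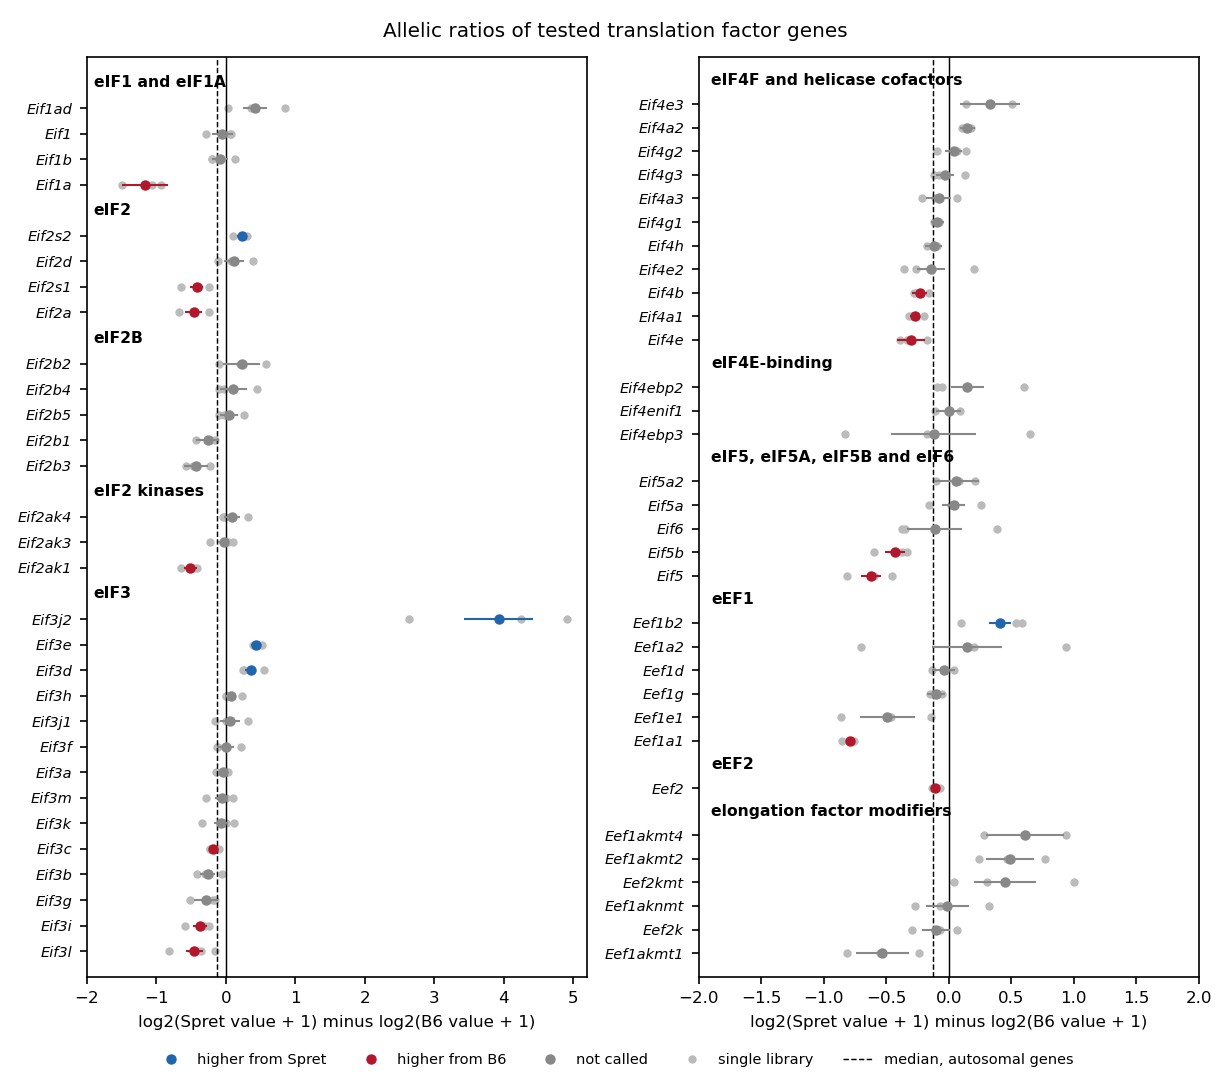
Allelic ratio (log2, horizontal axis) of the 62 tested members by role, with fitted values ± SE as large points and the 3 single libraries as small grey points; the left and right panels differ in scale. Blue points were higher from Spret, red points higher from B6, and all called ratios except those of Eif3j2 and Eif1a lay within 1 of 0.

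Most members had ratios close to 0. Among called members, 2 of low value, Eif1a and Eif3j2, differed by more than 2-fold in the fitted ratio. Both passed the filter on low values only through their higher allele. They make up 3.23% of the 62 tested members, against 7.35% of tested autosomal genes that were called with such a difference (1136 of 15456). The values of the alleles did not overlap between the 3 libraries in 16 members (25.8%), 12 for initiation and 4 for elongation, against 23.8% of tested autosomal genes. All 3 libraries gave a ratio of the same sign in 34 members (54.8%), against 54% of tested autosomal genes.

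**Figure D2:**
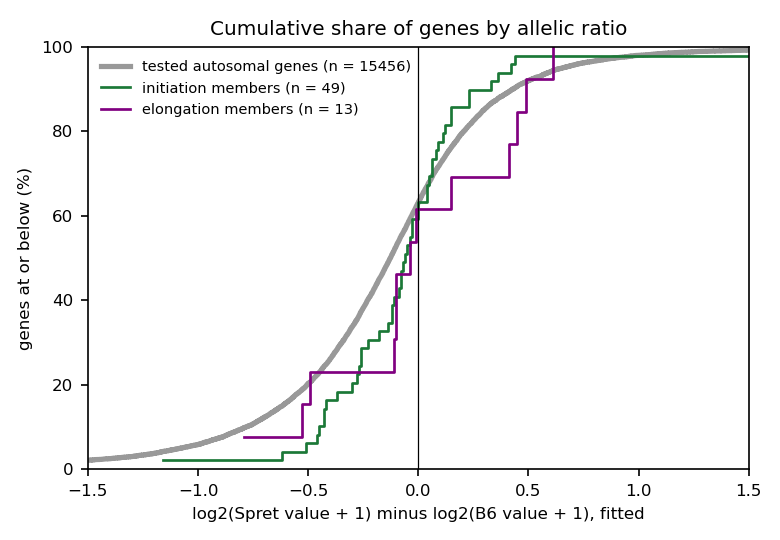
Cumulative share of genes (vertical axis, percent) at or below each fitted allelic ratio (horizontal axis, log2, shown from -1.5 to 1.5) for tested autosomal genes, initiation genes and elongation genes. The initiation curve rises more steeply around 0 than the grey curve, and Eif3j2 at 3.93 lies outside the range shown.

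Among the scanning factors eIF1 and eIF1A, 1 of 4 genes was called, and 3 were not. Eif1a, an autosomal gene for eIF1A, read 27, 22 and 18 from B6 and 9, 10 and 9 from Spret in libraries 1, 2 and 3. The alleles did not overlap, and the ratio was -1.16 ± 0.33 (SE), with an adjusted p of 0.0151 from limma. The call held after centring, at -1.04, but the values are low, and without library 1 the adjusted p was 0.126. The Spret mean of 9.333 lay under the filter of 10, so Eif1a was tested only through its B6 values. Eif1, which keeps the ribosome open for scanning, read 87, 85 and 99 from B6 and 91, 70 and 104 from Spret. Its relative Eif1b read 183, 177 and 173 from B6 and 202, 154 and 152 from Spret. Both overlapped fully between alleles, with ratios of -0.05 ± 0.15 and -0.08 ± 0.11. Eif1ad, which encodes a protein with an eIF1A-like domain, read 61, 83 and 90 from B6 and 111, 85 and 116 from Spret. Its ratio of 0.42 ± 0.17 missed the threshold, at an adjusted p of 0.0727, and passed it after centring, at 0.54 and 0.0235.

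The alpha and beta subunits of eIF2 differed in opposite directions. Eif2s1, which encodes the alpha subunit that stress kinases phosphorylate, read 291, 228 and 253 from B6 and 187, 175 and 214 from Spret. Every B6 value lay above every Spret value, the ratio was -0.42 ± 0.10, and the adjusted p was 0.00559. Eif2s2, which encodes the beta subunit, read 497, 433 and 503 from B6 and 615, 524 and 539 from Spret. Here every Spret value lay above every B6 value, the ratio was 0.23 ± 0.07, and the adjusted p was 0.0215. After centring both calls held, at -0.30 and 0.35. Neither held without library 1, at adjusted p-values of 0.109 for Eif2s1 and 0.178 for Eif2s2, and Eif2s2 was also lost without library 2, at 0.096. The gamma subunit has an X-linked and a Y-linked gene, so it falls outside the members.

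2 further genes named for eIF2 encode proteins that are not subunits of the complex. Eif2a, whose product can bring initiator tRNA to the ribosome, read 177, 191 and 195 from B6 and 128, 120 and 165 from Spret. The alleles did not overlap, and the ratio was -0.46 ± 0.12, with an adjusted p of 0.00756. Centring kept that call at -0.33, while the adjusted p rose to 0.0769 without library 1 and 0.0625 without library 2. Eif2d, also a tRNA-binding initiation and recycling factor, was not called, at 0.12 ± 0.14.

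None of the 5 eIF2B genes, whose products form the exchange factor that recharges eIF2 with GTP, was called by limma, and 1 of them, Eif2b3, had an unadjusted p under 0.05. Eif2b5, the catalytic subunit, read 118, 133 and 122 from B6 and 142, 124 and 120 from Spret. Its alleles overlapped, and its ratio was 0.05 ± 0.13. Eif2b3, a further subunit, stood at -0.43 ± 0.17 with an adjusted p of 0.0695, and the other ratios ran from -0.26 for Eif2b1 to 0.23 for Eif2b2.

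Of the 3 eIF2 kinase genes tested, 1 was called. Eif2ak1, the heme-regulated kinase HRI, read 314, 299 and 295 from B6 and 200, 223 and 215 from Spret. All B6 values lay above all Spret values, and B6 was 1.42-fold higher on average. The ratio was -0.51 ± 0.09, the adjusted p was 0.000557, and the call held after centring, at -0.38, and without any single library. With centring and library 1 left out together it was lost, at an adjusted p of 0.0679. On the opposite strand, inside Eif2ak1, lies Ankrd61, which read 75, 87 and 67 from B6 and 57, 60 and 51 from Spret. Aimp2, also on the opposite strand, overlaps an untranslated part of Eif2ak1 and read 66, 60 and 79 from B6 and 77, 94 and 86 from Spret, higher from Spret in each library. Eif2ak3, the kinase PERK of the endoplasmic reticulum, read 334, 232 and 535 from B6 and 341, 249 and 458 from Spret. PERK varied more between libraries than between alleles, at -0.03 ± 0.08, and the amino acid sensor Eif2ak4 (GCN2) stood at 0.09 ± 0.12.

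The eIF3 complex, the large scaffold that binds the small ribosomal subunit, had 14 tested genes, of which 3 were higher from Spret and 3 higher from B6. After centring 4 were higher from Spret and 0 higher from B6, with 2 towards B6 at an unadjusted p under 0.05 in limma. The share called was 42.9%, and 28.6% after centring, beside an autosomal background of 28.4% and 26.8%. In that background Spret calls made up 7.78% and B6 calls 20.7%, and 13.3% and 13.5% after centring. Eif3j2, which passed the filter only through Spret, is among the Spret calls in both fits. Whether the split of the eIF3 genes departs from the background was not tested. Eif3e, a subunit of the complex, read 385, 336 and 383 from B6 and 509, 482 and 509 from Spret. The alleles were well apart in all 3 libraries, and Spret was 1.36-fold higher on average. The ratio was 0.44 ± 0.07, the adjusted p was 0.000221, and the call held after centring, at 0.57, and without any single library. Eif3d, the subunit that can itself bind the mRNA cap, read 440, 362 and 428 from B6 and 524, 436 and 628 from Spret. Spret was higher within every library, although the ranges of the alleles overlapped slightly. The ratio was 0.36 ± 0.08, with an adjusted p of 0.00245, and 0.48 after centring, while without library 3 the adjusted p was 0.0518. An antisense gene inside Eif3d, Gm17638, read 297, 235 and 275 from B6 and 289, 255 and 361 from Spret.

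3 eIF3 genes were called higher from B6, and none of these calls held after centring. Eif3l read 188, 213 and 215 from B6 and 168, 120 and 167 from Spret, with no overlap. Its ratio was -0.45 ± 0.12 with an adjusted p of 0.0137, and 0.0619 after centring. Eif3i, a WD-repeat subunit, stood at -0.37 ± 0.10 with an adjusted p of 0.0114, and 0.0763 after centring. Eif3c, a core subunit, stood at -0.18 ± 0.06 with an adjusted p of 0.0394, and 0.540 after centring. Leaving out library 2 also ended the call of Eif3l, at an adjusted p of 0.138. Eif3i was lost without library 1 (0.0683) or library 2 (0.0881), and Eif3c without library 1 (0.201), 2 (0.143) or 3 (0.0589). Eif3a, the largest subunit, read 942, 792 and 953 from B6 and 960, 718 and 951 from Spret, so its alleles were nearly level at -0.04 ± 0.06. Eif3h passed only after centring, at 0.21 with an adjusted p of 0.0330, and the other subunits not called ran from -0.28 for Eif3g to 0.06 for Eif3j1.

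Eif3j2 had the highest ratio of all members. It read 0, 0 and 3 from B6 and 18, 29 and 24 from Spret, in a gene of a loosely bound eIF3 subunit. The ratio was 3.93 ± 0.50 with an adjusted p of 2.576e-05 from limma, and 4.06 after centring, where the call held. The size of the ratio depends on the added constant, being 4.63 with 0.5 and 2.28 with 5. The mean of 12.33 over the 6 columns passed the filter only through Spret, at means of 1 from B6 and 23.67 from Spret. The allele that admitted Eif3j2 to the test is thus the one called, so the call is no separate support for the difference. Eif3j2 lies at 43475418 to 43477796 on chromosome 18 and shares 90.8% of the 50-base stretches of its transcripts with Eif3j1 on chromosome 2. Reads could therefore be split between these copies in either allele, and the values are uncertain. Eif3j1 itself read 138, 80 and 104 from B6 and 123, 100 and 105 from Spret, at 0.06 ± 0.14. Taken as 1 gene, the copies had a Spret share of 55.6% ± 5.66.

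The eIF4F complex and its helicase cofactors had 11 tested genes, 3 called higher from B6 and 0 higher from Spret by limma, with 1 towards Spret at an unadjusted p under 0.05. After centring 1 was higher from B6 and 1 higher from Spret. The share called was 27.3%, and 18.2% after centring. That of tested autosomal genes was 28.4% (20.7% higher from B6 and 7.78% from Spret), and 26.8% after centring. The group's share before centring was thus near that of the table. Eif4e, which binds the mRNA cap, read 198, 157 and 216 from B6 and 157, 139 and 165 from Spret. B6 was higher in every library, but the ranges overlapped and the ratio of -0.30 ± 0.11 passed narrowly, at an adjusted p of 0.0444. After centring the adjusted p was 0.240, and it was 0.190 without library 1 and 0.229 without library 3. Its relatives Eif4e2 and Eif4e3 were not called, at -0.14 ± 0.11 and 0.33 ± 0.24. Eif4e2 read 210, 193 and 260 from B6 and 175, 222 and 202 from Spret, and Eif4e3 22, 28 and 32 from B6 and 28, 31 and 46 from Spret. Eif4e1b, known from oocytes, read 7, 8 and 6 from B6 and 2, 3 and 1 from Spret and was too low to test.

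The scaffold genes had nearly level alleles. Eif4g1 read 1144, 984 and 1127 from B6 and 1051, 934 and 1068 from Spret, at -0.09 ± 0.05. Eif4g2, whose product lacks the eIF4E-binding part, read 469, 373 and 603 from B6 and 492, 412 and 566 from Spret, at 0.04 ± 0.07. Eif4g3 read 565, 544 and 702 from B6 and 618, 513 and 644 from Spret, at -0.03 ± 0.07. None of the 3 was called, and the alleles of each overlapped. Of the helicase cofactors, Eif4b read 801, 651 and 923 from B6 and 669, 581 and 760 from Spret. It was called at -0.23 ± 0.06 with an adjusted p of 0.00694, which rose to 0.175 after centring, 0.0750 without library 1 and 0.0616 without library 3. Eif4h, a related cofactor, was not called, at -0.12 ± 0.07.

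The helicase genes had ratios of different sign. Eif4a1 read 2436, 1594 and 4283 from B6 and 2122, 1303 and 3425 from Spret. B6 was higher within each library, with a ratio of -0.27 ± 0.04 and an adjusted p of 0.000153, and -0.15 with 0.0149 after centring. With centring and library 3 left out together the adjusted p was 0.149. Eif4a2, the form known to prevail in neurons, read 658, 542 and 642 from B6 and 747, 598 and 695 from Spret. Spret was higher within each library, and the ratio of 0.15 ± 0.06 passed only after centring, at 0.27 with an adjusted p of 0.00322. Eif4a3, the helicase of the exon junction complex, read 224, 197 and 244 from B6 and 235, 170 and 226 from Spret. Its alleles overlapped, at -0.08 ± 0.10. Eif4a3l2, annotated as a pseudogene, had a single value of 1 and was not tested.

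Small RNA genes lie within Eif4a1 and had high values under their own names. The snoRNA gene Gm22988, 144 bases long at 69669635 to 69669778 on chromosome 11, lies inside Eif4a1 on the same strand. It read 1645, 940 and 3479 from B6 and 1352, 749 and 2668 from Spret. Small RNA genes inside Eif4a1 had summed values equal in size to 66%, 58.7% and 80% of that of Eif4a1 in libraries 1, 2 and 3. Nothing in the sources used here says whether the same reads were counted under both names. If they were, 788, 650 and 796 from B6 and 762, 547 and 747 from Spret remain for the rest of Eif4a1. The rest then summed to 1550, 1197 and 1543 over both alleles, where the sums of the whole gene were 4558, 2897 and 7708. Libraries 1 and 3 were nearly level in the rest and library 2 was lower. The ratio of the rest was -0.13 ± 0.06 with an adjusted p of 0.127, so that the call ended.

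**Figure D3:**
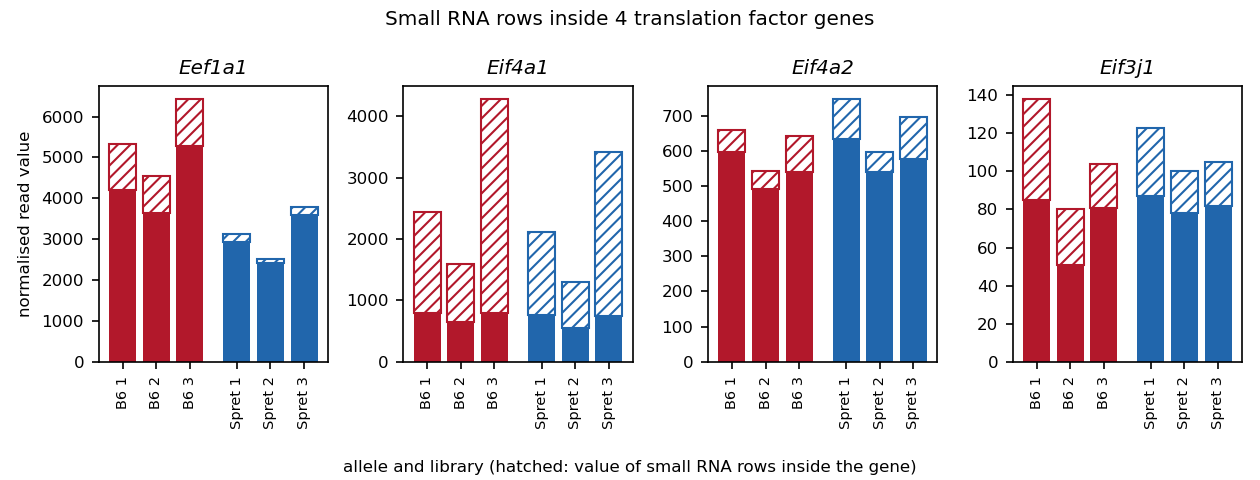
Normalised read values (vertical axis) of Eef1a1, Eif4a1, Eif4a2 and Eif3j1 for the B6 (red) and Spret (blue) allele in libraries 1 to 3, with the value of small RNA genes inside each gene hatched and the rest after subtraction filled. The filled part of Eif4a1 is nearly level between libraries 1 and 3 and lower in library 2, and the hatched part of Eef1a1 is larger from B6 than from Spret.

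Of 64 members with a GENCODE position, 16 held 26 such small RNA genes on the same strand, and their value exceeded 10% of that of the member in every library in 3. In Eif3j1, the annotated miRNA gene Gm47314 came to 34.1%, 28.3% and 22%, and the rest stood at 0.22 ± 0.17. In Eif4a2, 6 small RNA genes came to 12.4%, 9.39% and 16.5%, and the rest stood at 0.11 ± 0.06. With all of them subtracted, 18 of the 19 calls of members held, and Eif4a1 was lost. Opposite-strand genes overlapped 21 members, 6 of them called, Eef1b2, Eif2a, Eif2s2, Eif2ak1, Eif3d and Eif5b. Eef1akmt3, also among the 21, was too low to test. For comparison, 30.6% of all tested members and 28.4% of tested autosomal genes were called. The sources used here do not say how strand was used, so reads of a member and of an opposite-strand partner cannot be told apart. Sequence shared with other genes also limits some members, since 14 of 64 shared over 10% of their 50-base stretches, among them Eef1g with 44.2% and Eif4a1 with 28.4%. Of these, 2 shared over 50%, Eif3j2 with 91.8% and Eif4ebp3 with 65.5%. Only members were searched in this way, and not the other translation genes given below.

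None of the 3 tested genes for proteins that bind eIF4E was called by limma, and 0 had an unadjusted p under 0.05. Eif4enif1, which carries eIF4E into the nucleus, read 195, 174 and 267 from B6 and 208, 174 and 248 from Spret, at -0.00 ± 0.10. Eif4ebp2, the neuronal repressor of eIF4E, read 177, 133 and 202 from B6 and 166, 202 and 195 from Spret, at 0.15 ± 0.13. Spret was higher than B6 in library 2 alone, where the B6 value of Eif4ebp2 was lowest. Eif4ebp3 read 31, 17 and 13 from B6 and 17, 15 and 21 from Spret, without a shared direction. It shares 65.5% of its 50-base stretches with AC115631.1, an overlapping gene on the same strand, so its values are uncertain. Eif4ebp1 read 13, 3 and 7 from B6 and 15, 5 and 5 from Spret and was too low to test.

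Genes of the late steps of initiation included 2 of the clearest B6 differences, out of 5 tested, and both held after centring. Eif5, the GTPase-activating protein of eIF2, read 502, 443 and 631 from B6 and 332, 325 and 359 from Spret. The lowest B6 value lay above the highest Spret value, and B6 was 1.55-fold higher on average. The ratio was -0.62 ± 0.08 with an adjusted p of 3.211e-05, and -0.49 after centring. Eif5b, the GTPase that joins the ribosomal subunits, read 480, 412 and 458 from B6 and 371, 272 and 365 from Spret. Again the alleles did not overlap, the ratio was -0.43 ± 0.08 (-0.31 after centring), and the adjusted p was 0.000714. Without any single library both stayed under the threshold. On the opposite strand, Rev1 overlaps an untranslated part of Eif5b. It read 149, 126 and 179 from B6 and 114, 89 and 136 from Spret, higher from B6 in each library. The part of Rev1 in the ratio of Eif5b was not tested. Eif5a, which carries hypusine and helps stalled peptide bond formation, read 328, 226 and 337 from B6 and 294, 271 and 342 from Spret. Its relative Eif5a2 read 50, 36 and 86 from B6 and 58, 38 and 80 from Spret. Neither was called, at 0.04 ± 0.09 and 0.06 ± 0.18, nor was Eif6, which keeps the subunits apart, at -0.11 ± 0.22.

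**Figure D4:**
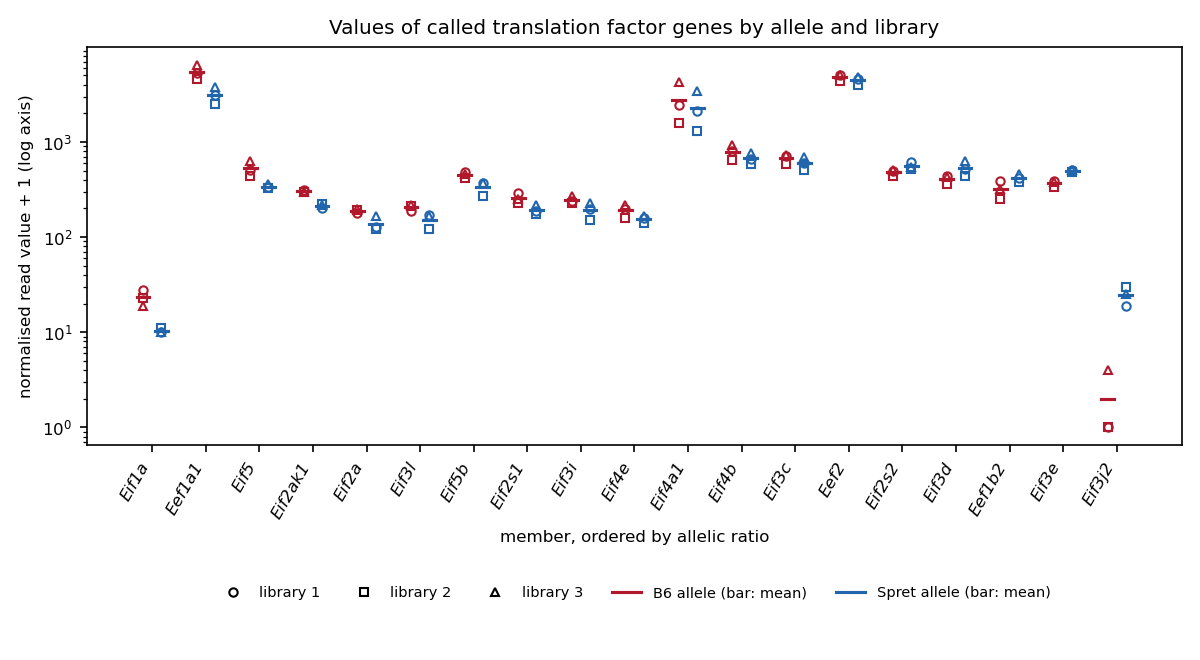
Normalised read values plus 1 (vertical log axis) of the 19 called members (horizontal axis, ordered by allelic ratio) for the B6 allele in red and the Spret allele in blue, with a symbol per library and a bar at the mean. Eef1a1, Eif5 and Eif5b show B6 values above all Spret values, and Eif3e and Eif3j2 the opposite.

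On the elongation side the largest difference was in Eef1a1, the main gene for the factor that delivers aminoacyl-tRNAs. It read 5317, 4537 and 6427 from B6 and 3116, 2523 and 3794 from Spret. Every B6 value lay above every Spret value, and B6 was 1.73-fold higher on average, a Spret share of 36.6% ± 0.754. The ratio was -0.79 ± 0.03 with an adjusted p of 1.075e-10, and -0.67 after centring. Its call was the only member call to hold under every setting tried. Eef1a2, the form that replaces eEF1A1 in mature neurons and muscle, read 46, 33 and 37 from B6 and 28, 38 and 72 from Spret. The libraries went different ways, at 0.15 ± 0.28.

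An annotated miRNA gene lies inside Eef1a1 as well, and no source used here says whether its reads were also counted for Eef1a1. Eef1a1 lies on the minus strand of chromosome 9 at 78478449 to 78489151, and Gm26377, 108 bases at 78478528 to 78478635, lies in its exonic UTR. Gm26377 read 1111, 898 and 1148 from B6 and 178, 117 and 195 from Spret, a Spret share of 13.3% on average. In size its value equalled 15.3%, 14.4% and 13.1% of that of Eef1a1. If it is subtracted, 4206, 3639 and 5279 from B6 and 2938, 2406 and 3599 from Spret remain. The alleles still did not overlap, the ratio was -0.56 ± 0.04, and the adjusted p was 9.376e-09, with a Spret share of 40.5% ± 0.663. Eef1a1 also shares 39.4% of its 50-base stretches with 20 other genes, so that reads may be split between copies, and the part of this in the ratio was not tested.

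The exchange factor of eEF1A, eEF1B, had 3 tested genes, of which 1 was called, towards Spret. Eef1b2, its alpha-type exchange subunit, read 391, 248 and 316 from B6 and 420, 374 and 459 from Spret. Spret was higher in each library although the ranges overlapped, and library 1 differed least. The ratio was 0.41 ± 0.09 with an adjusted p of 0.00395, and 0.53 after centring. Without library 3 the adjusted p was 0.0514. Eef1d, the other exchange subunit, and Eef1g, the structural subunit, stood at -0.04 ± 0.09 and -0.10 ± 0.07 and were not called. Eef1e1, a scaffold protein of the tRNA synthetase complex, read 47, 41 and 66 from B6 and 34, 37 and 36 from Spret. It did not overlap between alleles, but at -0.49 ± 0.22 its adjusted p was 0.111.

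Eef2, the translocase gene, read 5015, 4349 and 5084 from B6 and 4608, 3971 and 4846 from Spret. Its ratio of -0.11 ± 0.03 was called at an adjusted p of 0.0230. That ratio is close to the lean of the whole table, and after centring it was 0.02 with an adjusted p of 0.763. Without library 1 or 2 the adjusted p was 0.120 and 0.15. Eef2k, the kinase that inactivates eEF2, read 165, 157 and 190 from B6 and 135, 165 and 181 from Spret, at -0.10 ± 0.11.

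None of the 6 tested modifier genes was called by limma, and 2 had an unadjusted p under 0.05. They were Eef1akmt1 and Eef1akmt2, methyltransferases for lysines of eEF1A, which had ratios of opposite sign. Eef1akmt1 read 46, 57 and 52 from B6 and 31, 32 and 44 from Spret, without overlap, at -0.53 ± 0.21. Eef1akmt2 read 65, 29 and 46 from B6 and 77, 50 and 64 from Spret, at 0.49 ± 0.19. Only the latter passed after centring, at 0.61 with an adjusted p of 0.0267. Eef1akmt4, Eef2kmt and Eef1aknmt stood at 0.61 ± 0.31, 0.45 ± 0.25 and -0.01 ± 0.17, and Eef1akmt3 was too low to test.

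Of the 4 sex-linked symbols left out by the rule, 3 had values that split by allele. Eif2s3x, the X-linked gene for the gamma subunit of eIF2, read 255, 216 and 287 from B6 and 0 in each library from Spret. Its Y-linked counterpart Eif2s3y read 0 in each library from B6 and 254, 199 and 310 from Spret. Eif1ax, the X-linked gene for eIF1A, read 945, 796 and 910 from B6 and 1, 0 and 0 from Spret. The gamma subunit was thus read from the X-linked gene of B6 and the Y-linked gene of Spret in every library. The 11 pseudogene symbols left out read at most 9.

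Other genes of the translation pathway, listed outside the symbol rule, also had calls in both directions. Of 54 tested, 21 were called (38.9%, against 30.6% of members and 28.4% of tested autosomal genes). Of these 21, 4 were higher from Spret and 17 higher from B6, beside 7.78% and 20.7% of tested autosomal genes. Centring turned this split to 10 and 11, again 38.9% called, against 27.4% of members and 26.8% of tested autosomal genes. The latter divided into 13.3% higher from Spret and 13.5% from B6. Leaving out library 1, 2 or 3 left 9, 11 and 10 of the other translation genes higher from B6. Calls over the whole table fell from 4852 to 2667, 4001 and 3296 in these fits. The median ratio of the 54 genes was -0.14, beside -0.05 for members and -0.13 for all tested autosomal genes. By group, 8 of 15 genes of mTORC1 signalling were called, 2 higher from Spret and 6 higher from B6, and after centring 3 and 1. Of the 6 genes of poly(A)-binding proteins and their partners, 1 was called higher from Spret and 1 higher from B6, before and after centring. Of the 9 of the integrated stress response 3 were called, all higher from B6, and after centring 2 were higher from Spret and 3 from B6. Of the 14 of termination, recycling and other GTPases 1 was higher from Spret and 4 from B6, and after centring 4 and 4. Of the 10 of hypusine and diphthamide synthesis 3 were called, all higher from B6, and 2 after centring.

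The called gene of highest value in each group and direction was as follows. Rps6, the ribosomal protein that S6 kinases phosphorylate, read 861, 628 and 853 from B6 and 1203, 1046 and 1327 from Spret, at 0.62 ± 0.06 with an adjusted p of 9.511e-07. Abce1, the ATPase that recycles ribosomes, read 426, 422 and 468 from B6 and 206, 176 and 237 from Spret, at -1.09 ± 0.09 with an adjusted p of 1.086e-07. Neither of these overlapped between alleles, and both held after centring. Impact, an inhibitor of GCN2 and an imprinted gene in mice, read 313, 259 and 400 from B6 and 185, 161 and 302 from Spret, at -0.61 ± 0.09. Both alleles of Impact were thus read, with a Spret share of 39.5% on average, and the part of imprinting in its ratio was not tested. Odc1, which makes the putrescine from which spermidine for hypusine derives, and Pabpc4, a cytoplasmic poly(A)-binding protein, stood at -0.39 ± 0.06 and -0.46 ± 0.10. All 3 held after centring. Hbs1l, a GTPase of ribosome rescue, and Pabpn1, a nuclear poly(A)-binding protein, were higher from Spret, at 0.45 ± 0.13 and 0.31 ± 0.11, and 0.57 and 0.44 after centring, where both calls held. Larp1, a repressor of mRNAs with a 5′ terminal oligopyrimidine tract, stood at -0.25 ± 0.07, and its adjusted p rose from 0.0152 to 0.203 after centring. The calls of Hbs1l, Pabpn1 and Larp1 were also lost in some fits with a library left out, although all 3 libraries of each had the same sign. The adjusted p of Hbs1l was 0.269 without library 1 and 0.0560 without library 2, that of Pabpn1 0.329 without library 1 and 0.153 without library 3, and that of Larp1 0.126 without library 2 and 0.0661 without library 3.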

How the data were processed

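Allele-specific RNA values of 3 SpretB6 day 12 organoid libraries were analysed, and the 12 iPSC samples of 4 crosses were not analysed here. Values in the deposited table are treated as a score, that is, read numbers per allele that the authors normalised and rounded, judging by the table's name and its whole numbers. Up to 200, 27, 43 and 0 whole numbers were empty in libraries 1, 2 and 3, as scaling and rounding leave, so no test for counts was used and the depth in reads is unknown. Per the labels' protocols, ribosomal RNA was depleted and 80M reads were planned for each sample. The submitters' processing notes name build mm10. The aligner, allele assignment, counter, strand use and normalization were not given in the sources used here.

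Genes with a mean of at least 10 over 6 columns (15985) were fitted with limma 3.58.1 in R 4.3.3 on log2(value + 1), modelling library and allele, with an intensity trend. The library is a replicate block that comes from the material, since both alleles share the RNA. Tests were two-sided with Benjamini-Hochberg adjustment over all tested genes and a threshold of 0.05, on 2 residual and 12.3 prior degrees of freedom. Simulated data were run only through the centred fit, so they do not test the uncentred calls. Nothing says that the libraries, titled C1 to C3, came from separate cultures. The p-values measure the spread of the allelic ratio between libraries, moderated over all tested genes, and this spread may be technical. All columns differed, and between libraries of the same allele chi-square values were 2.75 to 6.01 per degree of freedom. They describe the spread of values and not that of the allelic ratios.

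Positions were taken from GENCODE M21 (GRCm38, the assembly of mm10) for 42620 genes and RefSeq for 899 more, with 741 unplaced. Full values were given to the called members whose ratio had the same sign in 3 of 3 libraries, the 6 highest and 6 lowest, to the member of highest value in each role, and to paralogue sets. Other members were given in brief where they bore on a group. The members and lists were chosen with earlier results of these data known. Alternatives were other pseudocounts (0.5 and 5), no filter or a mean of at least 50, centred ratios, no replicate block, no trend, each library left out, and, added after seeing the data, subtraction of small RNA genes and centring with a left-out library.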

Additional observations from a re-analysis of the deposited data

How the results depend on the processing

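In limma, a pseudocount of 0.5 or 5 kept 19 of 19 calls of members, a mean of at least 50 kept 17 (Eif1a and Eif3j2 were no longer tested, and elongation genes higher from Spret went from 1 to 2), and centring kept 13 and added 4. Without a filter 44260 genes were fitted and 2 calls were kept, with 1 initiation gene higher from Spret and 0 from B6 (15 at an unadjusted p under 0.05), 0 (3) and 1 for elongation, and 1 and 2 for the other translation genes. Without the replicate block, which leaves the library differences in the error, 3 calls were kept: 1 and 1 for initiation, 0 (0) and 1 for elongation, and 0 (2 at an unadjusted p under 0.05) and 3 for the other genes. Without the trend 3 were kept: 1 and 1, 0 (3) and 1, and 2 and 4. Over the whole table, calls fell from 4852 to 1236 without a filter, 1537 without the block and 2229 without the trend. Centring gave 7 and 7, 2 and 1, and 10 and 11, and medians of 0.07 for initiation and 0.08 for elongation. It also turned the sign of 11 named genes near 0, Eef2 to 0.02, Eef2k to 0.03, Eif1b to 0.04, Eif2ak3 to 0.09, Eif3a to 0.08, Eif4enif1 to 0.12, Eif1 to 0.08, Eif4ebp3 to 0.01, Eif4a3 to 0.04, Eif4g1 to 0.03 and Eif4g3 to 0.10.

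Leaving out library 1, 2 or 3 kept 10, 13 and 14 calls of members, while calls over the whole table fell from 4852 to 2667, 4001 and 3296. Over these fits the counts higher from Spret and from B6 ran from 3 to 4 and 5 to 9 for initiation, 0 (1 at an unadjusted p under 0.05) to 1 and 1 to 2 for elongation, and 3 to 4 and 9 to 11 for the other genes. The medians ran from -0.08 to -0.06 for initiation and -0.08 to 0.00 for elongation. Uncalled ratios changed sign in some of these fits, with ranges of -0.18 to 0.00 for Eef2k, -0.10 to 0.07 for Eif2ak3, -0.06 to 0.12 for Eif2b5, -0.07 to 0.01 for Eif3a, -0.05 to 0.05 for Eif4enif1, -0.25 to 0.57 for Eef1a2, -0.11 to 0.07 for Eif1, -0.07 to 0.27 for Eif4ebp2, -0.50 to 0.24 for Eif4ebp3, -0.01 to 0.11 for Eif4g2, -0.10 to 0.02 for Eif4g3, -0.07 to 0.14 for Eif5a and -0.01 to 0.14 for Eif5a2. In all 3 of these fits and after centring, 7 calls held, of Eef1a1, Eif2ak1, Eif3e, Eif3j2, Eif4a1, Eif5 and Eif5b, and Eif4a1 was lost when small RNA genes were subtracted. With centring and a left-out library together, a choice made after seeing the data, 5 of the 7 held in every fit. Eif2ak1 was lost without library 1 (adjusted p 0.0679) and Eif4a1 without library 3 (0.149). The fits differ in the genes fitted, the terms of the model and the samples. The prior degrees of freedom were 12.3 in the main fit, 1.66 without a filter, 7.08 without the block and 2.17 without the trend. The cause of the changes in calls was not tested. With 3 libraries and an unknown depth in reads, small ratios near the lean of the table cannot be told from it. Low members such as Eif1a and Eif3j2 rest on few reads, and these 2 passed the filter only through their higher allele.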
